A study of Mus musculus with 11 samples.

Results

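The voltage-gated and pacemaker ion channel genes form a family of membrane proteins that carry the sodium, calcium, potassium and pacemaker currents of the heart, together with their accessory subunits. Members were taken by name from the protein-coding rows of the deposited expression table: symbols that begin with Kcn, Cacna, Cacnb or Cacng, or with Scn or Hcn followed by a digit, with Kcnj14 left out. This gave 137 genes among 21565 protein-coding genes and 35584 genes in all. A gene entered the tests when its mean across the 11 libraries reached 10 normalised counts, which 65 members did and 72 did not. Names set the family, with earlier results of these data known, and measured means set which members were tested.

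A heartbeat begins when pacemaker channels, which open on hyperpolarisation and are sensitive to cyclic nucleotides, depolarise cells of the sinoatrial node. Sodium channels then give the fast upstroke in working muscle, L-type calcium channels couple the voltage change to contraction, and several potassium currents end the action potential. Mouse ventricle repolarises mainly through transient outward and other fast potassium currents, whereas acetylcholine-gated potassium channels are best known from atria and nodes. Resident macrophages of the heart lie among these cells, take up debris that cardiomyocytes release, and couple electrically to conducting cells in the atrioventricular node.

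PolyA RNA was sequenced from whole hearts of males 8 to 12 weeks old. WT mice (n = 3 libraries) and CD169-DTR mice (cTMs Depleted, n = 3) both received diphtheria toxin, 3 times a week over 3 weeks, each dose being 0.01 µg per gram. Toxin kills cells that express the receptor carried by the CD169-DTR allele, and hearts of that group were taken after 21 days of macrophage depletion. Mertk-KO hearts (n = 2) came from mice labelled as deficient for Mertk, a receptor that phagocytes use to clear dying cells. LxRαβ DKO hearts (n = 3) came from mice labelled as deficient for both liver X receptors, nuclear receptors for oxysterols. The labels give no toxin treatment for these last groups, no hour of collection and no statement that libraries of a group came from separate mice, so a p-value here speaks of the spread among libraries and that spread may be technical. The CD169-DTR allele and the depletion cannot be told apart, nor can genotype and toxin in the knockout comparisons.

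Libraries held 10938600 to 20722295 estimated reads. Siglec1, which encodes CD169, had normalised counts of 64.3, 55.3 and 53.4 in WT, against 33.8, 2.12 and 0.72 in cTMs Depleted, so the first depleted library kept more of it than the others. Mertk was at 131, 147 and 130 in WT and at 75.7 and 89.4 in Mertk-KO (log2 difference -0.71 ± 0.19 SE, adjusted p 0.0408), with 75.5 in the lowest cTMs Depleted library. Gene totals do not show which exons the Mertk reads came from. Nr1h3 and Nr1h2, the liver X receptor genes, fell by 2.50 and 2.52 on the log2 scale in LxRαβ DKO. The summed macrophage markers were at 4089 to 4837 in WT, 1305 to 3013 in cTMs Depleted, 5006 to 7136 in Mertk-KO and 3342 to 4348 in LxRαβ DKO. Ventricular muscle markers summed to 460600 to 580900 in all libraries, as the heart label implies. Summed atrial markers varied within groups, from 3696 to 26330 in WT, 3361 to 6841 in cTMs Depleted, 1746 to 3199 in Mertk-KO and 1700 to 17900 in LxRαβ DKO, so libraries carried unequal amounts of atrial RNA. In bulk tissue, fewer cells of a type and less RNA per cell cannot be told apart.

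Levels per length, in the deposited transcripts-per-million (TPM) table, showed which channels dominate the WT heart. In WT, 17 members were above 10 TPM and 45 were above 1 TPM, and the 17 made up 82.8% of the family's summed TPM. Kcnip2, the accessory subunit of the fast transient outward current, had the highest level at 99.4 ± 7.95 TPM (SD, n = 3). Kcnk3, an acid-sensitive background potassium channel, followed at 72.9 ± 6.87 TPM, and Kcnj11, the pore subunit of the muscle ATP-sensitive potassium channel, at 64.0 ± 4.46 TPM. Kcnip2 stood above the other members by more than the spreads, while Kcnk3 and Kcnj11 differed by little more than theirs.

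The L-type calcium channel Cacna1c was at 50.2 ± 2.01 TPM. Below it came Cacna2d1, the calcium channel alpha2delta subunit, at 39.3 ± 2.11 TPM, and Kcng2, a silent subunit that modifies other voltage-gated potassium channels, at 38.8 ± 5.84 TPM. Kcnh2, the pore of the rapid delayed rectifier, was at 33.4 ± 1.35 TPM and Cacnb2, the calcium channel beta subunit best known from heart, at 32.2 ± 3.89 TPM. Neither of these pairs differed beyond its spread. The pacemaker channels were lower, with Hcn2 at 7.80 ± 0.511 TPM and Hcn4 at 2.40 ± 0.468 TPM.

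**Figure D1:**
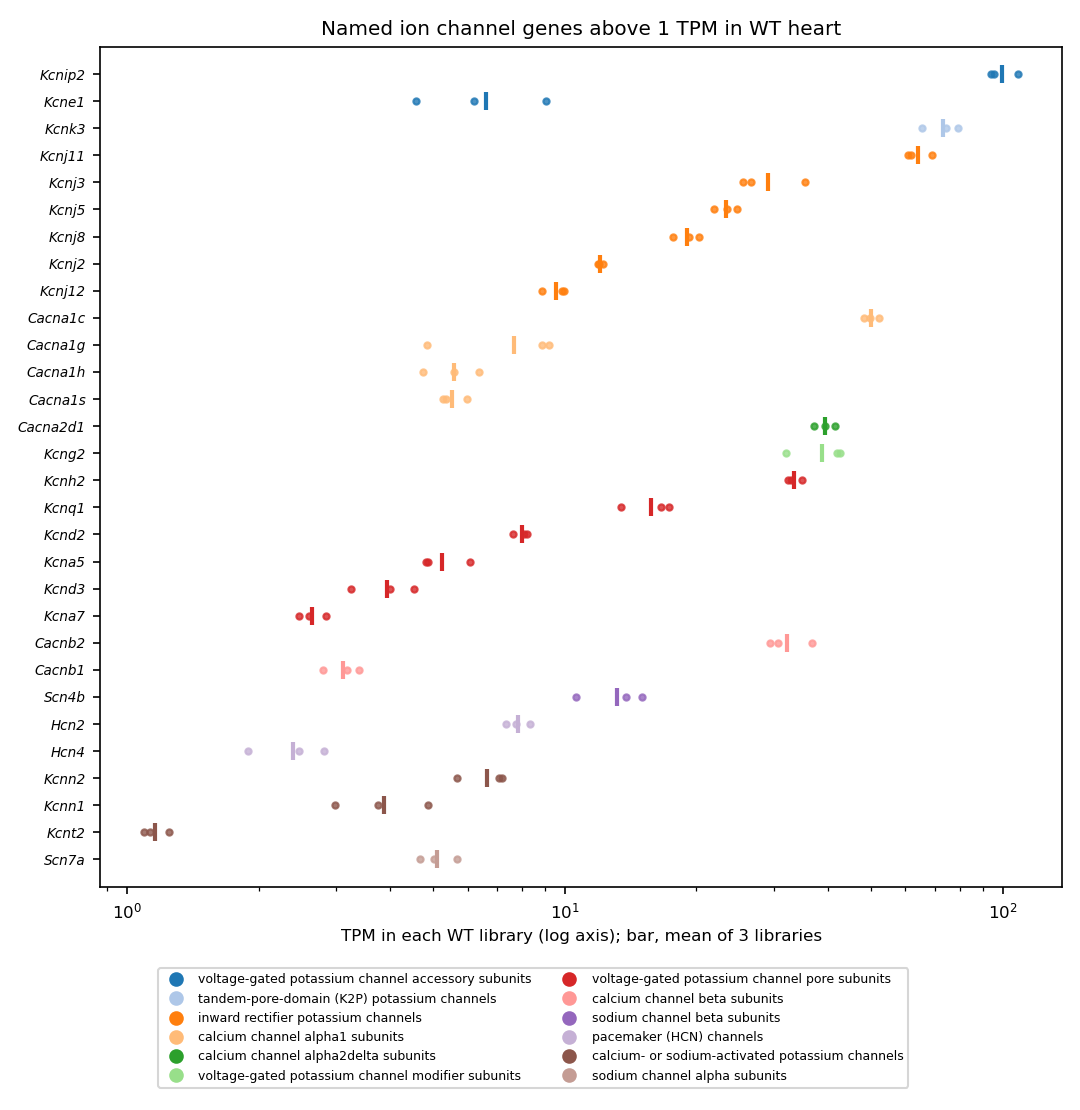
Level of channel genes named in the text that were above 1 TPM in WT heart, by role; each point is a WT library on a log axis of TPM, and the bar is the mean of 3 libraries. Kcnip2 leads at 99.4 TPM, and Cacna1c, Cacna2d1 and Cacnb2 lie between 32.2 and 50.2 TPM.

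Summed by role, inward rectifiers held 159 ± 8.56 TPM in WT and voltage-gated potassium channel accessory subunits 112 ± 7.67 TPM. Voltage-gated potassium pore subunits followed with 85.4 ± 4.76 TPM, and then the K2P channels with 76.4 ± 7.01, sodium alpha subunits with 73.2 ± 5.21 and calcium alpha1 subunits with 71.4 ± 1.26 TPM. The K2P sum is almost wholly Kcnk3. The pacemaker channels held 10.6 ± 1.07 TPM in WT, 6.26 ± 0.668 in cTMs Depleted, 12.4 ± 2.94 in Mertk-KO and 12.2 ± 0.859 in LxRαβ DKO.

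After macrophage depletion, Hcn2 fell to 49.4% of its WT level. It encodes the pacemaker channel subunit that, in mouse, is found in ventricular muscle as well as in the sinoatrial node. It was the single member called among the 65 in this comparison, or 1.54%, against 0.238% of all 13884 genes tested (0.158% lower and 0.0792% higher). The gene lies on chromosome 10 (GRCm38, 79716634 to 79736108, plus strand). Its promoter window from RefSeq, chr10:79716384-79716683 on the plus strand of GRCm38.p6, is shown because Hcn2 is the gene this comparison turns on. The window runs from 250 bases before the annotated start to 50 bases after it, and capitals mark the GC boxes found by a search for GGGCGG on both strands.
Hcn2: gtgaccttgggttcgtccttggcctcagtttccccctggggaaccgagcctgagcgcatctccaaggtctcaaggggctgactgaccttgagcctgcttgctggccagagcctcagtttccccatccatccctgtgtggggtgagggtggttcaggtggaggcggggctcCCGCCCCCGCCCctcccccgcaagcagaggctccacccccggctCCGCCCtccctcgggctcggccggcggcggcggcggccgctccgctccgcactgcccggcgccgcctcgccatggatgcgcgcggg
The window had 72.3% G or C, against a median of 52.7% over 32851 windows, and 3 GC boxes, 2 of which adjoin. It held neither the clock E-box CACGTG nor the D-box TTATGTAA on either strand. Of all windows, 35.7% held a GC box, 7.15% an E-box and 0.938% a D-box. Of the 62 windows of 43 tested members, 46.8% held a GC box and 6.45% an E-box. These matches describe letters in a window and no binding was measured.

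In WT, Hcn2 was at 298, 272 and 316 normalised counts. In cTMs Depleted it was at 166, 144 and 128, in Mertk-KO at 443 and 315, and in LxRαβ DKO at 328, 292 and 377. All 3 depleted libraries were below each of the other 8, with no overlap. The depleted library that kept most Siglec1 was also the highest of its group in Hcn2, but a relation across 3 libraries was not tested. The log2 difference from WT was -1.02 ± 0.15 SE (limma, adjusted p 0.0171), and over 23 alternative settings it ranged from -1.12 to -0.86, with adjusted p between 0.000504 and 0.114. The call was lost, with adjusted p of 0.0507 to 0.114 and log2 differences of -1.08 to -0.93, when WT 1, WT 2, WT 3, cTMs Depleted 2 or cTMs Depleted 3 was left out, and also in the TPM table (-0.86, adjusted p 0.0687). Against Mertk-KO the log2 difference was -1.36 ± 0.17 (adjusted p 0.00128), and against LxRαβ DKO it was -1.18 ± 0.15 (adjusted p 0.00140). Both direct differences passed the threshold in all 23 alternatives, with adjusted p up to 0.0425 and 0.0101.

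Hcn4 did not pass the test after depletion. This gene, which encodes the main pacemaker channel of the sinoatrial node, was at 89.3, 102 and 122 normalised counts in WT, 103, 58.0 and 109 in cTMs Depleted, 138 and 69.0 in Mertk-KO, and 119, 107 and 121 in LxRαβ DKO. Its groups overlapped throughout (depleted minus WT -0.26 ± 0.27, adjusted p 0.962).

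In TPM, Hcn2 made up 78.0%, 73.0% and 70.5% of the 4 Hcn genes in WT and 62.1%, 71.6% and 52.1% in cTMs Depleted. The ranges overlapped, since the second depleted library lay above the lowest WT value. The Hcn4 share was 22.5% ± 2.99 (SD, n = 3) in WT and 33.7% ± 9.51 in cTMs Depleted.

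**Figure D2:**
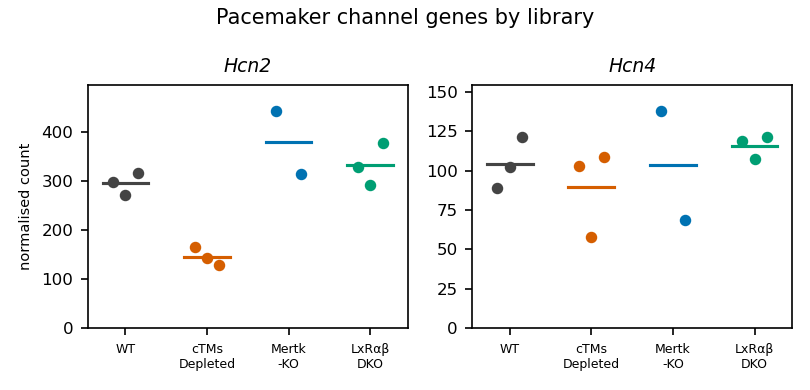
Normalised counts of the pacemaker channel genes Hcn2 and Hcn4 by library; points are libraries and lines are group means, on axes that start at 0. For Hcn2 the depleted libraries lie between 128 and 166, below all others, while the groups overlap for Hcn4.

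Several markers moved with the depleted group beside Hcn2. Macrophage markers were lower in 12 of 12 fitted cases, 2 of them called, and the ranges given above did not overlap between the group and WT. Summed adipocyte markers were at 8.63 to 21.5 in cTMs Depleted and 45.1 to 107.5 in WT (4 of 4 fitted lower, median log2 difference -1.76), endothelial markers at 9467 to 10290 and 10710 to 11660 (6 of 6, -0.15), and erythrocyte markers at 3302 to 4862 and 4994 to 8508 (5 of 5, -0.66). None of these 3 sums overlapped between the groups, and no gene of the 3 lists was called. All 5 tested atrial markers were also fitted lower (median log2 difference -0.98), and none was called. Their sums overlapped, at 3361 to 6841 in cTMs Depleted and 3696 to 26330 in WT. Among circadian clock genes 13 of 18 were fitted higher in cTMs Depleted with a median log2 difference of 0.50. limma called 0 of them, and 13 of 18 had an unadjusted p below 0.05 (72.2%, against 7.53% of all genes). Per1, a repressor of the clock, was at 224, 453 and 572 in WT and 1257, 1275 and 1648 in cTMs Depleted. Of the 6 ventricular muscle markers, 4 were fitted lower, with a median log2 difference of -0.089. The only 1 of them called, the slow myosin heavy chain Myh7, rose (1.58 ± 0.19, adjusted p 0.00839). Whether any of these takes part in the Hcn2 difference was not tested.

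The rest of the family showed no call after depletion. Of the 65 members, 31 were fitted higher and 34 lower, with a median log2 difference of -0.021 against 0.0029 for all genes. At an unadjusted p below 0.05 there were 8 members (12.3%), against 7.53% of all genes: Hcn2, Kcnk3, Kcnn1, Kcna5, Kcnt2, Scn7a, Cacna1s and Cacnb1. Kcna5, the ultrarapid delayed rectifier, had normalised counts of 169, 164 and 208 in WT, 270, 261 and 284 in cTMs Depleted, 296 and 181 in Mertk-KO, and 170, 267 and 190 in LxRαβ DKO. The depleted libraries lay above WT without overlap, but the difference did not pass (0.60 ± 0.19, adjusted p 0.397).

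Kcnk3, second in TPM, was at 3483, 2919 and 3220 in WT, 2652, 2673 and 2663 in cTMs Depleted, 4020 and 3481 in Mertk-KO, and 3433, 3539 and 3510 normalised counts in LxRαβ DKO. The depleted libraries were below every other library. The difference from WT did not pass (-0.26 ± 0.08, adjusted p 0.345), whereas those from Mertk-KO (-0.49 ± 0.09, adjusted p 0.00576) and LxRαβ DKO (-0.39 ± 0.08, adjusted p 0.0231) did. The first held in 21 of 23 alternatives (adjusted p 0.000856 to 0.0674) and the second in 16 (0.00367 to 0.0967). The second was lost without cTMs Depleted 1, 2 or 3 or LxRαβ DKO 1 or 2. Without Mertk-KO 2, Kcnk3 was called higher in Mertk-KO 1 than in WT (0.33, adjusted p 0.0329). Its exons share 229 bases with a transcript on the opposite strand, and whether the authors' counting used strand is unknown, so part of its reads could belong to that transcript.

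In the libraries labelled Mertk-KO, 7 of 65 members fell and none rose, or 10.8%, against 9.27% of all genes (5.89% lower and 3.38% higher), so the share of calls was near the background. They were the transient outward channel Kcnd2, the alpha2delta subunit Cacna2d1, both subunits of the acetylcholine-gated channel, Kcnj3 and Kcnj5, the sodium-sensing channel Scn7a, the beta subunit Cacnb4 and the voltage-gated channel Kcna6. Among all 65, 43 were fitted lower and 22 higher, with a median log2 difference of -0.1228 against -0.0147 for all genes. At an unadjusted p below 0.05 there were 20 members (30.8%), against 28.6% of all genes. Some muscle markers moved with this group. All 5 tested atrial markers were fitted lower (median log2 difference -3.97) and none was called. Their sums were at 1746 to 3199 in Mertk-KO and 3696 to 26330 in WT. Summed skeletal muscle markers were at 36710 to 44370 in Mertk-KO and 24550 to 26440 in WT, and both tested genes of that list, Acta1 and Ckm, which heart also expresses, were called higher (median log2 difference 1.03). Myh1, Myh2, Myh4 and Tnnt3, the other genes of that list, had at most 10.5 normalised counts in any library. The ventricular light chain Myl3 was also called higher (0.49 ± 0.10, adjusted p 0.0213), 1 of 2 called among the 6 ventricular markers. Of these 6, 3 were fitted lower, and the median log2 difference was 0.12. Their sums overlapped, at 495900 to 580900 in Mertk-KO and 501500 to 554900 in WT. The part of these markers in the channel differences was not tested.

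Kcnd2, a pore subunit of the fast transient outward current, was at 521, 487 and 518 normalised counts in WT, 576, 580 and 514 in cTMs Depleted, 354 and 284 in Mertk-KO, and 384, 367 and 410 in LxRαβ DKO. Both knockout groups lay below all WT and depleted libraries. The fall in Mertk-KO was to 62.8% of WT (log2 difference -0.68 ± 0.11, adjusted p 0.0112), called in 19 of 23 alternatives (adjusted p 0.00137 to 0.139) and lost without WT 3 (adjusted p 0.0512). In LxRαβ DKO the mean was 76.1% of WT and the difference did not pass (-0.39 ± 0.10, adjusted p 0.173). It passed without Mertk-KO 1 or Mertk-KO 2 (adjusted p 0.0432 to 0.0450).

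Its partners in that current were not called. Kcnd3, the other pore subunit, was at 344, 290 and 265 in WT, 249, 321 and 288 in cTMs Depleted, 296 and 225 in Mertk-KO, and 270, 221 and 305 in LxRαβ DKO. Kcnip2, whose product binds these pores, was at 2680, 2371 and 2240 in WT, 2884, 2427 and 1694 in cTMs Depleted, 2426 and 2351 in Mertk-KO, and 2584, 2597 and 2587 in LxRαβ DKO. Each group overlapped WT for both genes, and no comparison with WT passed (adjusted p 0.467 to 0.994 and 0.845 to 0.985). Kcnd2 made up 67.1% ± 3.70 of the summed TPM of Kcnd2 and Kcnd3 in WT, and 60.1% and 62.8% in Mertk-KO, so the share was lower in both libraries than the 64.4% of the lowest WT library.

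Kcnj3, the first subunit of the acetylcholine-gated channel that slows the heart on vagal stimulation, was at 1849, 1354 and 1334 in WT, 1188, 1257 and 1623 in cTMs Depleted, 884 and 888 in Mertk-KO, and 1209, 1372 and 1305 in LxRαβ DKO. Kcnj5, its partner subunit, was at 1250, 1244 and 1112 in WT, 1374, 1182 and 1439 in cTMs Depleted, 929 and 933 in Mertk-KO, and 1206, 1227 and 1056 in LxRαβ DKO. For both genes the Mertk-KO libraries were below all others. Kcnj3 fell to 58.6% (-0.75 ± 0.15, adjusted p 0.0194) and Kcnj5 to 77.5% (-0.37 ± 0.10, adjusted p 0.0484). Kcnj3 was called in 16 of 23 alternatives (adjusted p 0.0163 to 0.167), and its call was lost without WT 1 or WT 3 (0.0517 to 0.0582). Kcnj5 was called in 6 of 23 (0.0390 to 0.262), and leaving out any of 9 libraries ended the call (0.0538 to 0.136), namely each WT, each Mertk-KO, cTMs Depleted 1 or 3 and LxRαβ DKO 1 or 2. WT 1, the highest library in Kcnj3, was also the highest in summed atrial markers (26330), and the Mertk-KO libraries were low in them (3199 and 1746). LxRαβ DKO 3 had the lowest atrial sum of all (1700) with Kcnj3 at 1305, above LxRαβ DKO 1 with 1209 at an atrial sum of 4333. Without WT 1 the log2 difference of Kcnj3 was -0.60. The part of atrial RNA in these differences was not tested. Kcnj3 shares 1621 exon bases with a noncoding gene on the opposite strand.

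Cacna2d1, which raises the surface level of L-type channels, was at 3139, 2901 and 3262 in WT, 2799, 2639 and 3027 in cTMs Depleted, 1469 and 2260 in Mertk-KO, and 3000, 2561 and 3223 in LxRαβ DKO. It fell to 60.1% of WT (-0.77 ± 0.15, adjusted p 0.0193), called in 16 of 23 alternatives (adjusted p 0.000106 to 0.287), and was also lower than in LxRαβ DKO (-0.68 ± 0.15, adjusted p 0.0452). Both Mertk-KO libraries lay below every other library. Leaving out WT 1, WT 2 or WT 3 ended the call against WT (0.0519 to 0.0693), and without Mertk-KO 1 the difference was -0.45 and still called (0.0378). Against LxRαβ DKO, leaving out any 1 of 9 libraries ended it (0.0616 to 0.128), the exceptions being Mertk-KO 2 and LxRαβ DKO 2, and without Mertk-KO 1 the difference was -0.37. With the length and GC trend removed it was -0.30 (0.147). Cacnb4, a beta subunit best known from brain, was at 25.5, 35.2 and 37.3 in WT, 41.5, 27.7 and 37.3 in cTMs Depleted, 11.4 and 17.5 in Mertk-KO, and 24.4, 27.4 and 22.8 in LxRαβ DKO. Its fall was to 44.3% (-1.13 ± 0.29, adjusted p 0.0351), called in 9 of 21 alternatives (0.0130 to 0.333) and lost without WT 1, 2 or 3, cTMs Depleted 3, Mertk-KO 1 or LxRαβ DKO 1 (0.0522 to 0.130). It shares 1433 exon bases with an opposite-strand transcript.

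Scn7a, a channel that senses extracellular sodium and is known from glia, was at 452, 524 and 420 in WT, 531, 588 and 616 in cTMs Depleted, 260 and 337 in Mertk-KO, and 436, 370 and 459 in LxRαβ DKO. It fell to 64.2% of WT (-0.64 ± 0.14, adjusted p 0.0239), with no overlap, and was called in 14 of 23 alternatives (0.00241 to 0.729). The call was lost without WT 1, 2 or 3 or Mertk-KO 1 (0.0607 to 0.0794). Kcna6, known from neurons, was at 30.2, 37.4 and 31.1 in WT, 25.2, 35.1 and 53.0 in cTMs Depleted, 10.9 and 18.6 in Mertk-KO, and 37.6, 30.4 and 40.7 in LxRαβ DKO. It fell to 44.8% (-1.15 ± 0.33, adjusted p 0.0493), called in 5 of 21 alternatives (0.0165 to 0.245), and its call was lost without WT 1, 2 or 3, cTMs Depleted 2, Mertk-KO 1 or any LxRαβ DKO library (0.0554 to 0.197). It shares 2355 exon bases with an antisense gene. Summed Schwann cell and neuron markers were at 175 to 254 in WT and at 117 and 220 in Mertk-KO, so these groups overlapped. All 5 tested markers of that list were fitted lower in Mertk-KO, as Scn7a and Kcna6 were, with a median log2 difference of -0.33, and none was called. Chat was at 0 in both groups. The part of these markers in the Scn7a and Kcna6 differences was not tested.

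**Figure D3:**
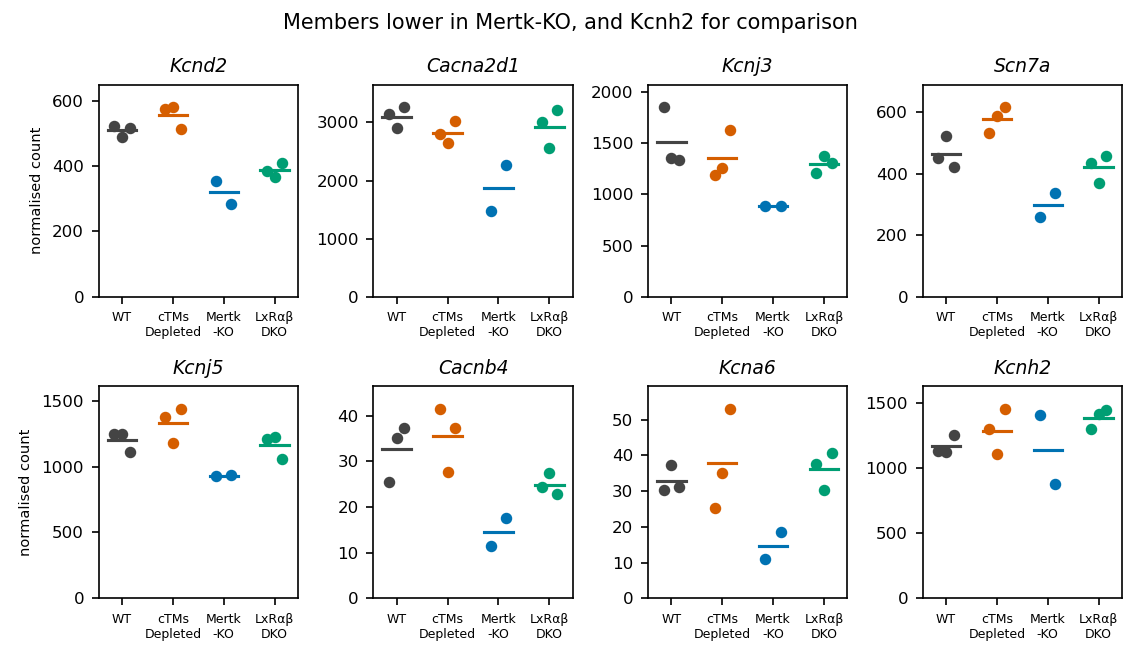
Normalised counts by library of the 7 members that fell in Mertk-KO, and of Kcnh2, which was not called; points are libraries and lines are group means, on axes that start at 0. In each of the 7 panels both Mertk-KO libraries lie below all WT libraries, whereas for Kcnh2 they lie on either side of them at 1411 and 877.

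The members that fell have long transcripts. The longest protein-coding transcript (GENCODE M21) had a median of 5836 bases among the 7, with a range of 4685 to 8225, against 4792 among the 65 tested members and 3128 among all tested genes. Among the 32 members longer than the member median, 27 were fitted lower in Mertk-KO and 6 were called, and their median log2 difference was -0.54. Among the 33 at or under it, 16 were fitted lower and 1 was called, and the median was 0.01. Over the 65 members, the log2 difference between a library and the mean of WT went with transcript length, at Spearman correlations of -0.416 (Mertk-KO 1) and -0.526 (Mertk-KO 2). Over 13871 tested genes with a length, the values were -0.257 and -0.520, and the LxRαβ DKO libraries had values of the same sign over all genes, at -0.263, -0.391 and -0.149. Over all genes the cTMs Depleted libraries were at -0.0442, 0.230 and 0.0547. For members the LxRαβ DKO libraries were at 0.123, -0.145 and -0.0449, and the cTMs Depleted libraries at -0.182, -0.158 and 0.429. These points share a library, so the values are descriptions. With a trend on length and GC content removed, none of the 7 was called. Their log2 differences were then -1.04 for Kcna6, -0.55 for Cacnb4, -0.43 for Kcnj3, -0.38 for Kcnd2, -0.27 for Kcnj5, -0.21 for Cacna2d1 and -0.08 for Scn7a. All were still below 0 (limma adjusted p 0.125 to 0.729). In that fit 0 of the 65 members were called, against 1.93% of all genes.

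**Figure D4:**
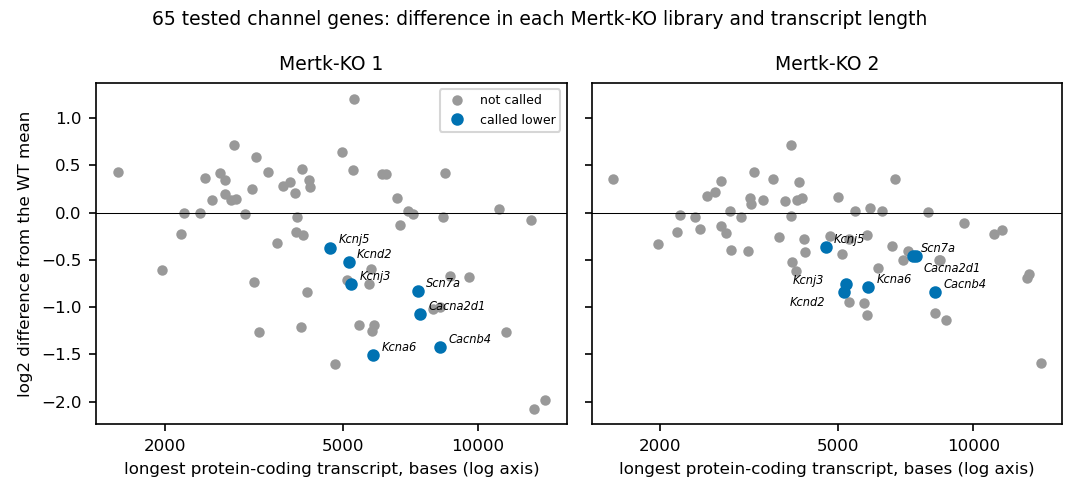
Log2 difference of each tested channel gene from the WT mean in the 2 Mertk-KO libraries, against the length of its longest protein-coding transcript on a log axis; each point is a gene, and the 7 called lower are named. Long transcripts lie lower in both libraries, with Spearman correlations of -0.416 and -0.526.

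The 2 Mertk-KO libraries also differed between themselves for core genes. Kcnj2, the main background inward rectifier of ventricle, was at 821, 790 and 802 in WT, 631, 826 and 732 in cTMs Depleted, 353 and 812 in Mertk-KO, and 766, 678 and 793 in LxRαβ DKO. It was low in Mertk-KO 1 alone, and the group did not pass (-0.59 ± 0.25, adjusted p 0.147).

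Cacna1c was at 4547, 4693 and 4440 in WT, 5434, 5051 and 5248 in cTMs Depleted, 4308 and 2830 in Mertk-KO, and 3757, 3443 and 4883 in LxRαβ DKO. The depleted libraries lay above all others and the Mertk-KO libraries below WT, and neither comparison with WT passed (adjusted p 0.897 and 0.147). With Mertk-KO 2 left out, 16 members were called against WT, 13 lower and 3 higher (24.6%, against 17.3% of all genes), with the lone library assumed to vary like the other groups. Among them were Kcnj2 (-1.19, adjusted p 0.000105), Kcna2 (-1.26, 0.0122), Kcna4 (-1.60, 0.0265), Kcna5 (0.72, 0.0382), Hcn2 (0.59, 0.0346) and Kcnk3. With Mertk-KO 1 left out there were 5 (7.69%, against 10.8%), Cacna1c (-0.69, 0.0146) and Cacnb2 (-0.52, 0.0491) among them. Without WT 1, WT 2 or WT 3 the counts were 1, 2 and 0, and without LxRαβ DKO 1 the count was 4 (1.18%, 1.2%, 0.504% and 4.56% of all genes).

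In LxRαβ DKO, no member passed limma's threshold, against 0.418% of all genes (0.216% higher and 0.202% lower). At an unadjusted p below 0.05 there were 8 members (12.3%), against 11.5% of all genes, and voom weights also called 0. With array weights there were 4 calls (6.15%, against 4.27% of all genes), and in a fit of WT and LxRαβ DKO alone there were 2 (3.08%, against 0.893%). The median log2 difference was -0.0123 among the members and 0.0011 among all genes, with 32 fitted higher and 33 lower.

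Kcnj11, which senses the energy state of muscle cells through ATP, was at 838, 734 and 800 in WT, 914, 704 and 770 in cTMs Depleted, 939 and 595 in Mertk-KO, and 500, 421 and 525 in LxRαβ DKO. The LxRαβ DKO libraries lay below all other libraries. At 61.0% of WT, the difference did not pass (-0.72 ± 0.16, adjusted p 0.103), and it was called in 6 of 23 alternatives (0.00273 to 0.497), among them the fits without Mertk-KO 1 or Mertk-KO 2 (0.00680 to 0.00695). Against cTMs Depleted it did pass, with Kcnj11 higher there (0.72 ± 0.16, adjusted p 0.0320), in 16 of 23 alternatives (0.00167 to 0.143). That call was lost without WT 3, any cTMs Depleted library or LxRαβ DKO 1 or 2 (0.0544 to 0.143). Kcnj11 lies on chromosome 7, 1.54 Mb from Nr1h2. The part of DNA that flanks the Nr1h2 deletion was not tested. Another member near Nr1h2 was Kcna7 at 0.852 Mb (adjusted p 0.388).

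The partner pore Kcnj8, which forms the ATP-sensitive channel of vascular smooth muscle, was at 502, 549 and 546 in WT, 576, 489 and 484 in cTMs Depleted, 584 and 601 in Mertk-KO, and 574, 543 and 470 in LxRαβ DKO, and WT and LxRαβ DKO overlapped. In TPM, Kcnj11 made up 79.6%, 75.1% and 76.3% of both pores in WT and 68.5%, 63.6% and 70.9% in LxRαβ DKO. The LxRαβ DKO shares were below all others, the nearest being 73.4% in Mertk-KO 2. The regulatory subunits of these channels, Abcc9 and Abcc8, did not pass in any comparison with WT (adjusted p 0.282 to 0.974 and 0.304 to 0.995).

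Cacna1g, a T-type calcium channel that opens at low voltages in pacemaker tissue, was at 351, 377 and 398 in WT, 335, 255 and 521 in cTMs Depleted, 364 and 264 in Mertk-KO, and 691, 705 and 519 in LxRαβ DKO. The LxRαβ DKO libraries were above WT at a mean of 170% of it, and 519 in their lowest library was below 521 in cTMs Depleted 3. The difference from WT did not pass (0.75 ± 0.22, adjusted p 0.259, with 0.0185 to 0.777 over the alternatives and a call in 2 of 23). Cacna1h, the other T-type channel, was at 370, 315 and 267 in WT, 206, 211 and 507 in cTMs Depleted, 157 and 150 in Mertk-KO, and 300, 376 and 201 in LxRαβ DKO. Both Mertk-KO libraries were the lowest of all, and the difference did not pass (-1.03 ± 0.35, adjusted p 0.0767), except without cTMs Depleted 3 (0.0314). In TPM, Cacna1c made up 70.3% ± 1.58 of the calcium alpha1 subunits in WT and 58.1% ± 6.83 in LxRαβ DKO, with 71.9%, 68.8% and 70.2% against 57.1%, 51.9% and 65.4%. Cacna1c itself was at 50.2 TPM in WT and 48.6 in LxRαβ DKO, whereas Cacna1g was at 7.65 and 18.1 TPM. Levels of Cacna1g in TPM and in counts differed, with 4.85 to 9.20 TPM in WT at counts of 351 to 398.

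**Figure D5:**
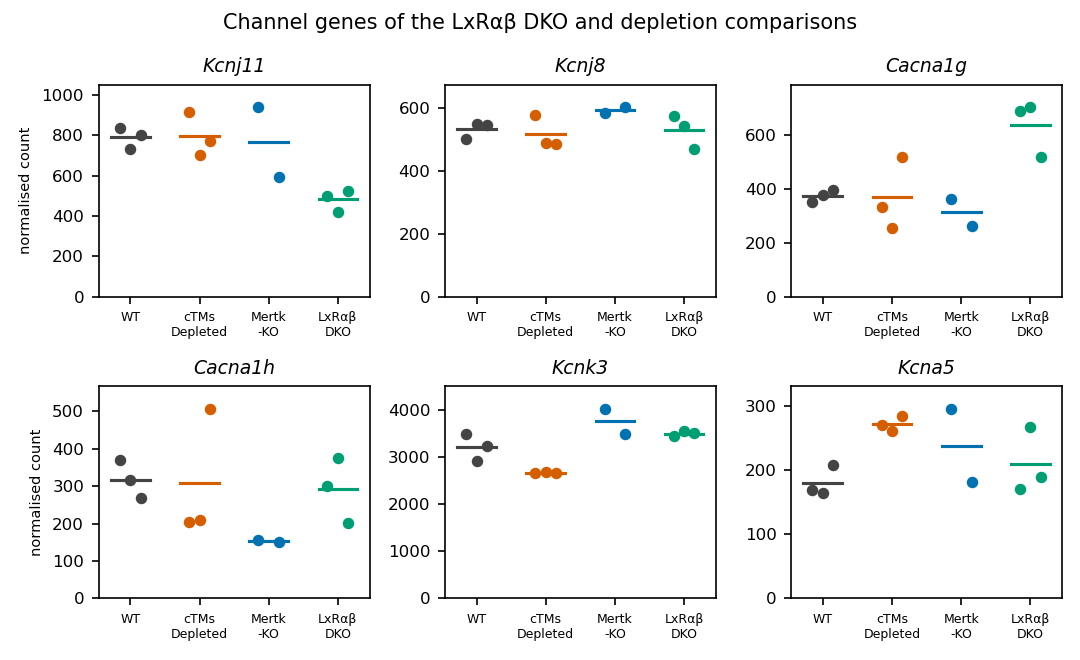
Normalised counts by library of both ATP-sensitive pores, both T-type calcium channels, Kcnk3 and Kcna5; points are libraries and lines are group means, on axes that start at 0. Kcnj11 lies between 421 and 525 in LxRαβ DKO, below all other libraries, and Kcnk3 lies between 2652 and 2673 in cTMs Depleted.

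Between perturbed groups, depleted and Mertk-KO hearts differed in 15 members, 11 higher and 4 lower in cTMs Depleted (23.1%, against 21.0% of all genes). These comparisons share libraries with those above. Among the 4 lower were Hcn2, Kcnk3 and the small-conductance calcium-activated channel Kcnn1. Kcnn1 was at 145, 153 and 136 in cTMs Depleted and 242 and 192 in Mertk-KO, with 174, 189 and 161 in WT and 160, 192 and 184 in LxRαβ DKO. Depleted libraries were below and Mertk-KO libraries level with or above the others (depleted minus Mertk-KO -0.57 ± 0.14, adjusted p 0.0165, 18 of 23 alternatives, lost without cTMs Depleted 3 or Mertk-KO 1 at 0.0516 to 0.0873).

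Of the 11 members higher in cTMs Depleted than in Mertk-KO, 7 were those that fell in Mertk-KO against WT, and the others were Cacna1c, Cacnb2, Kcna2 and the sodium-activated channel Kcnt2. The 4 of largest difference were Kcna6 (1.28 ± 0.33, adjusted p 0.0199), Cacnb4 (1.25 ± 0.29, 0.0138), Kcna2 (1.04 ± 0.31, 0.0348) and Scn7a (0.96 ± 0.14, 0.00309). Kcna2, a voltage-gated potassium channel known from axons, was at 93.0, 62.6 and 71.3 in WT, 101, 71.5 and 113 in cTMs Depleted, 30.5 and 65.8 in Mertk-KO, and 92.9, 67.6 and 95.6 in LxRαβ DKO. Leaving out Mertk-KO 1 ended the calls of Cacnb4 (0.96, adjusted p 0.0659), Kcna2 (0.50, 0.257) and Kcna6, and without Mertk-KO 2 Kcna2 was at 1.58. With the trend on length and GC content removed, none of the 4 was called, and the differences of Cacnb4, Kcna2 and Scn7a were 0.60, 0.52 and 0.34. Kcna2 was also lost without WT 3, cTMs Depleted 1 or cTMs Depleted 3 (0.0503 to 0.257), and Kcna6 without cTMs Depleted 2 or 3 (0.0532 to 0.104).

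Depleted and LxRαβ DKO hearts differed in 4 members (6.15%, against 3.24% of all genes). Hcn2 and Kcnk3 were lower in cTMs Depleted, and Kcnj11 and Kcnd2 higher (Kcnd2 0.52 ± 0.10, adjusted p 0.0159, lost without cTMs Depleted 1 or 2 or LxRαβ DKO 1 or 2 at 0.0502 to 0.0822). Mertk-KO and LxRαβ DKO hearts differed in 2 members, both lower in Mertk-KO (3.08%, against 2.46% of all genes), and Cacna2d1, described above, was among them.

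The remaining core current genes were not called against WT, beginning with the delayed rectifier pores. Kcnh2 was at 1131, 1122 and 1257 in WT, 1300, 1108 and 1458 in cTMs Depleted, 1411 and 877 in Mertk-KO, and 1304, 1416 and 1447 in LxRαβ DKO. Kcnq1, the pore of the slow delayed rectifier, was at 591, 484 and 574 in WT, 526, 598 and 652 in cTMs Depleted, 542 and 529 in Mertk-KO, and 533, 557 and 602 in LxRαβ DKO. Adjusted p of both genes against WT ran from 0.553 to 0.963, and each group overlapped WT except for Kcnh2, whose LxRαβ DKO libraries lay above it.

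Kcne1, the beta subunit of the slow delayed rectifier, was at 82.9, 118 and 77.5 in WT, 70.4, 209 and 109 in cTMs Depleted, 54.4 and 101 in Mertk-KO, and 141, 182 and 76.2 in LxRαβ DKO. Kcna4, the pore of the slow transient outward current, was at 22.3, 13.3 and 19.9 in WT, 22.5, 13.4 and 25.9 in cTMs Depleted, 5.31 and 15.1 in Mertk-KO, and 27.8, 27.8 and 24.4 in LxRαβ DKO. Its LxRαβ DKO libraries were above WT without passing (0.53 ± 0.38, adjusted p 0.621). Scn4b, a sodium channel beta subunit, was at 650, 925 and 845 in WT, 772, 1012 and 717 in cTMs Depleted, 1247 and 893 in Mertk-KO, and 745, 512 and 529 in LxRαβ DKO. Adjusted p of these 3 genes against WT ran from 0.177 to 0.995.

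Cacnb2 was at 961, 1008 and 1129 in WT, 1428, 1044 and 1283 in cTMs Depleted, 999.7 and 720 in Mertk-KO, and 952, 992 and 1089 in LxRαβ DKO. Cacna1d, the L-type channel of node and atria, was at 37.2, 52.0 and 34.5 in WT, 38.0, 31.9 and 59.6 in cTMs Depleted, 25.1 and 17.9 in Mertk-KO, and 43.3, 26.5 and 30.3 in LxRαβ DKO. Both were lowest in Mertk-KO 2. Kcnj12, a second background inward rectifier, was at 267, 243 and 275 in WT, 259, 260 and 264 in cTMs Depleted, 336 and 232 in Mertk-KO, and 313, 281 and 295 in LxRαβ DKO. Kcnn2, a small-conductance calcium-activated channel, was at 190, 214 and 218 in WT, 250, 195 and 248 in cTMs Depleted, 253 and 173 in Mertk-KO, and 186, 223 and 248 in LxRαβ DKO. For Kcnj12 the LxRαβ DKO libraries lay above WT, and for Kcnn2 all groups overlapped. Exons of Cacna1d share 589 bases with the opposite-strand gene Chdh. Those of Cacnb2, Cacna1h, Kcnd3, Kcnn1 and Kcnn2 also share bases with opposite-strand genes, and whether counting used strand is unknown.

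The 72 members below the minimum were mostly near the limit of detection. Of these, 10 had 0 reads in all 11 libraries, which allows up to 3 reads or 2.12 to 4.22 normalised counts in a library, and 34 had at most 3 reads in every library. Another 10 had a mean of at least 5 normalised counts, led by Kcnc1 (9.08), Kcnk13 (8.23) and Kcnk5 (8.22), just below the minimum, with Kcnq5 (10.3), Kcnt1 (10.6) and Kcnd1 (12.5) just above it. Kcnc1, a fast delayed rectifier known from neurons, was at 10.6, 15.4 and 2.10 in WT, 14.1, 14.4 and 7.93 in cTMs Depleted, 13.3 and 17.3 in Mertk-KO, and 1.92, 0 and 2.93 in LxRαβ DKO. The LxRαβ DKO libraries were low, at or under the limit set by 3 reads, with WT 3 also under it. Kcnc1 lies 1.84 Mb from Nr1h2.

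Proteins that bind channels without belonging to the naming rule were examined as a list of 30, of which 28 were tested. After depletion and in LxRαβ DKO, limma called 0, with 2 and 3 at an unadjusted p below 0.05 (7.14% and 10.7%, against 7.53% and 11.5% of all genes). In Mertk-KO 4 of the 28 fell and 1 rose, where 5.89% of all genes fell and 3.38% rose. At an unadjusted p below 0.05 there were 11 in Mertk-KO (39.3%, against 28.6%). Trpm7, a cation channel fused to a kinase, fell (-1.10 ± 0.22, adjusted p 0.0192), as did Akap9, an anchor of the slow delayed rectifier (-0.86 ± 0.19, 0.0254), Ank2, an ankyrin that anchors transporters (-0.42 ± 0.11, 0.0415), and Fgf12, a sodium channel modulator (-4.01 ± 0.93, 0.0279). Fgf12 was at 144, 53.2 and 16.8 in WT and 3.98 and 1.08 in Mertk-KO. It was at 16.9, 43.1 and 67.6 in cTMs Depleted and 17.6, 79.6 and 10.7 in LxRαβ DKO. Within each group its order was that of the summed atrial markers, whose part in its fall was not tested. Rrad, a small GTPase that restrains L-type channels, was at 2993, 2577 and 2873 in WT and 2348, 1405 and 1414 in cTMs Depleted, and the difference did not pass (-0.75 ± 0.21, adjusted p 0.283).

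Transcription factors known to act on channel genes or the conduction system were tested for 16 of 20. After depletion and in LxRαβ DKO, limma called 0, with 3 and 2 at an unadjusted p below 0.05 (18.8% and 12.5%, against 7.53% and 11.5% of all genes). In Mertk-KO 3 of the 16 were called, against 9.27% of all genes, and 7 had an unadjusted p below 0.05 (43.8%, against 28.6%). Irx4, a ventricular repressor, rose (0.39 ± 0.11, adjusted p 0.0467), as did Hand2 (0.64 ± 0.17, 0.0440), and Mef2c, a muscle gene activator, fell (-0.55 ± 0.10, 0.0140). Irx5, a repressor of Kcnd2 in mouse ventricle, was at 137, 104 and 117 in WT, 135, 78.5 and 87.1 in cTMs Depleted, 117 and 128 in Mertk-KO, and 124, 139 and 177 in LxRαβ DKO, without a call. Klf15, an activator of Kcnip2 in mouse heart, was at 485, 471 and 520 in WT, 649, 486 and 659 in cTMs Depleted, 515 and 466 in Mertk-KO, and 489, 482 and 658 in LxRαβ DKO, also without a call. Of 18 clock genes, Per3, Nr1d2 and Rora fell in Mertk-KO (-1.28 ± 0.36, -1.0 ± 0.12 and -0.89 ± 0.23, adjusted p 0.0453, 0.00334 and 0.0355), where 5.89% of all genes fell. At an unadjusted p below 0.05 there were 6 (33.3%, against 28.6% of all genes). In LxRαβ DKO, limma called 0 of the 18, with 2 at an unadjusted p below 0.05 (11.1%, against 11.5% of all genes).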

How the data were processed

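PolyA RNA of whole hearts was sequenced in 11 libraries after amplification (Ovation Single Cell), per the labels' protocols. GRCm38, kallisto 0.43.1, RSEM 1.2.20, cutadapt and CASAVA 1.8.2 appear in the submitters' processing notes. What each tool did, the scaling, the annotation release and the use of strand are not stated there. For each gene the authors deposited 2 values, each a signal: a normalised count on a per-million scale with 0.5 read added, as its values show, and a rescaled TPM. The added part was removed to recover estimated reads (58.9% to 62.3% of values up to 20 reads were whole within 0.01, so no whole-count test was run), which were scaled to the mean effective library size.

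Symbols, gene types, coordinates and lengths came from GENCODE M21, and 35469 of 35584 IDs matched. Promoter windows came from RefSeq, where 101 of 137 members had one. limma 3.58.1 in R 4.3.3 (trend) was fitted to log2(normalised count + 1) of 13884 genes with a mean of at least 10, with 4 group means and 7 residual degrees of freedom, two-sided, Benjamini-Hochberg adjusted over all genes of a comparison, threshold 0.05. Differences are on that log2 scale, which understates changes of low genes. The fit was tested on simulated data. No pairing was used, since the labels tie no numbers together, and same-numbered libraries correlated at -0.0937 to 0.107 in their deviations from group means. Replicates differed by more than sampling noise (median chi-square 0.864 to 3.25, where noise alone gives 0.455). A gene at 0 allows up to 3 reads. This limit covers counting error only: PCR duplicates were not marked by molecular identifiers.

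Members and lists were chosen with earlier results of these data known. Named with values in each library were core cardiac current genes, members past the threshold against WT, and up to 4 in each direction in the other comparisons. Some genes that this rule names are not reported here. Kcnc1 and members of the other lists named with library values were chosen after their values were seen. Figures used Python 3.11.15 and matplotlib 3.10.9.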

Additional observations from a re-analysis of the deposited data

How the results depend on the processing

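Counts of called members were recomputed with other pseudocounts (0.5, 5), another minimum (50 or none), median-of-ratios scaling, the TPM table, no variance trend, voom weights, array weights, only the compared groups, a replicate block, length and GC trends removed, and each library left out. Of the estimates for single named genes, 2435 stayed on their side of the threshold, 171 lost and 22 gained a call, and none turned its sign while called. Beside each count stands the percentage of all genes called under that setting. The count after depletion was 0 in the TPM table (0.0325%) and without the variance trend (0.130%). For Mertk-KO against WT (7, 9.27%) it was 2 without the trend (2.41%), 4 with voom (6.90%), 2 with the replicate block (2.82%), and 0 with array weights (0.0864%), with only both groups (0.0072%), or with length and GC trends removed (1.93%). For LxRαβ DKO against WT (0, 0.418%) it was 4 with array weights (4.27%), 2 with only both groups (0.893%), and 1 with the replicate block (0.382%) or with length and GC trends removed (0.476%). For cTMs Depleted against Mertk-KO (15, 21.0%) the TPM table gave 9 (12.8%), and it was 3 with array weights (3.15%), 2 with only both groups (1.05%) and 6 with length and GC trends removed (8.72%). For cTMs Depleted against LxRαβ DKO (4, 3.24%) it was 2 without the trend (1.63%) and 11 with array weights (14.7%). For Mertk-KO against LxRαβ DKO (2, 2.46%) it was 0 with no minimum (0.965%), in the TPM table (0.536%), without the trend (0.634%), with voom (1.17%), with array weights (0.137%) or with only both groups (0.144%), and 1 with the replicate block (0.857%) or with length and GC trends removed (2.26%). In these settings the count of members moved in the direction of the all-gene share, except with the replicate block in LxRαβ DKO against WT. The cause of these changes was not tested in any setting. Leaving out 1 library at a time gave 0 to 1, 0 to 16, 0 to 2, 6 to 19, 1 to 8 and 0 to 13 members in the order above, where 0.0216% to 0.605%, 0.504% to 17.3%, 0.223% to 0.850%, 9.93% to 23.3%, 0.972% to 8.85% and 0.519% to 15.6% of all genes were called. Groups of 2 or 3 libraries and members near 10 normalised counts limit what could be called.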

Other observations

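A further 5 noncoding rows of the table carry names of the family and were left out of it. Kcnq1ot1, the antisense RNA of the imprinted Kcnq1 locus, was at 341, 346 and 492 normalised counts in WT, 372, 513 and 374 in cTMs Depleted, 164 and 292 in Mertk-KO, and 342, 357 and 410 in LxRαβ DKO. It was lower in Mertk-KO than in WT (-0.82 ± 0.23 SE, limma adjusted p 0.0494), while Kcnq1 itself was not (-0.03 ± 0.12, adjusted p 0.882). The exons of both genes share 121 bases, and whether counting used strand is unknown. The part of transcript length in the Kcnq1ot1 difference was not tested, and its call was not followed over the alternative settings. Kcnd3os, antisense to Kcnd3, was at 5.12 to 9.57 in WT, 6.36 to 16.9 in cTMs Depleted, 6.64 to 10.8 in Mertk-KO and 6.48 to 9.76 in LxRαβ DKO, below the minimum for a test. The other noncoding rows, Kcnmb4os1, Kcnmb4os2 and Kcnab3os, had at most 1.06 normalised counts in any library.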
